A study of Mus musculus with 8 samples.

Results

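Immediate early genes and heat shock genes were followed in lung RNA from mice that overexpress Fra-2. A fixed set of 33 genes was taken by symbol or alias from the array's annotation, and 32 of them were measured, among 20863 named genes in all; Hspa1b had no spot under its own name. The brightest spot of each gene, by its mean log2 intensity over all arrays, stood for that gene. The 32 comprise 13 transcription factors, 4 phosphatases of MAP kinase feedback, 5 chaperones and 10 other early response regulators.

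Whole lung from 4 wild-type mice and 4 mice labelled Fra-2 over-expressing (Fra-2 TG) was compared, with 1 single-colour Agilent array per mouse. All 8 mice had the C57BL/6 background and were 8 weeks old, and the labels name no treatment. The promoter that drives the transgene is not given in the sources used here. Levels below are log2 normalised intensities, and every difference is transgenic minus wild type on that log2 scale. In whole tissue, fewer cells of a type and less RNA per cell cannot be told apart.

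Immediate early genes are switched on by signals that reach the nucleus through MAP kinases, calcium and cyclic AMP, using transcription factors already present in the cell, so that no new protein is needed. Many of their products are transcription factors such as the Fos, Jun, Egr and Nr4a proteins, and others, such as the Dusp phosphatases, switch the same kinases off again. Heat shock genes encode chaperones that hold and refold unfolded proteins and are induced by heat shock factor. Fra-2, the product of Fosl2, is itself a Fos family member that binds DNA in AP-1 dimers.

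The overexpressed gene, Fosl2, has 2 spots. The brighter had 10.64, 10.12, 10.68 and 11.01 in wild-type mice 1 to 4 and 10.03, 9.42, 9.38 and 10.62 in transgenic mice 1 to 4, and the dimmer had 3.44, 4.41, 4.65 and 5.58 against 6.35, 6.98, 6.68 and 7.85. The dimmer spot was higher in every transgenic mouse than in any wild-type mouse, with a limma adjusted p of 0.153 over all named spots, and it lay under the floor for dim signals (4.74, the median over all spots) in wild-type mice 1 to 3. At the brighter spot the groups overlapped and the transgenic mean was lower (limma adjusted p = 0.537). Where on the Fosl2 transcript these spots lie is not known here. All 5 lung epithelial markers examined (Sftpc, Sftpb, Sftpa1, Ager and Scgb1a1) were bright in all mice. Sftpc and Scgb1a1 were at the top of the scale in all 8 and Sftpb and Sftpa1 near it (no value under 15.59), so these 4 show that lung epithelium was present and could not show a difference; Ager differed by -0.20 (SE 0.25). The arrays of wild-type mouse 4 and transgenic mouse 4 correlated least with their own groups (mean Pearson r 0.966 and 0.971, against 0.973 for the other wild-type mice and 0.975 for the other transgenic mice).

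Members had lower levels in transgenic lung far more often than higher ones, but no single member passed the test. None of the 32 had an adjusted p under 0.05 in limma over all genes, where 0.216% of genes did; the smallest was 0.202, for Hspb1. At an unadjusted p under 0.05, 11 members were lower and 0 higher (3.82% of all genes were lower and 5.33% higher at this p). The difference was negative in 28 of 32 members, against 47.6% of all genes, and the median was -0.49, against 0.014 over all genes. Groups did not overlap in 7 members, all lower in transgenic lung: Nr4a1, Mafk, Dusp1, Hspb1, Dnajb1, Btg2 and Cyr61. The gap between the lowest wild-type and the highest transgenic mouse was 0.19 in Hspb1 and at most 0.059 in the other 6, down to 0.0020 in Cyr61. Of all genes, 2.54% had groups without overlap and a lower transgenic level, and 3.99% a higher one. Genes are not independent of each other, so these shares describe the set and do not test it. The same shares are the background for the counts by class and by related list given below.

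The count of 11 members moved both ways when 1 array was dropped. Among wild-type mice 1 to 4, dropping each in turn gave 6, 12, 13 and 7. Among transgenic mice 1 to 4 it gave 7, 6, 5 and 14, with 13 of the 14 lower. Each such fit also has fewer arrays, and the share of all genes at this p is not given for it. These counts therefore do not show how far the result rests on single mice. With both mice numbered 4 left out, 11 members had an unadjusted p under 0.05 and 10 of these were lower. Of all genes, 11% had such a p and 5.1% were lower at it. The median of the members was then -0.41. Egr3, Nr4a3 and Dusp5 lay under the floor in both group means, so 29 members had a usable level.

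**Figure D1:**
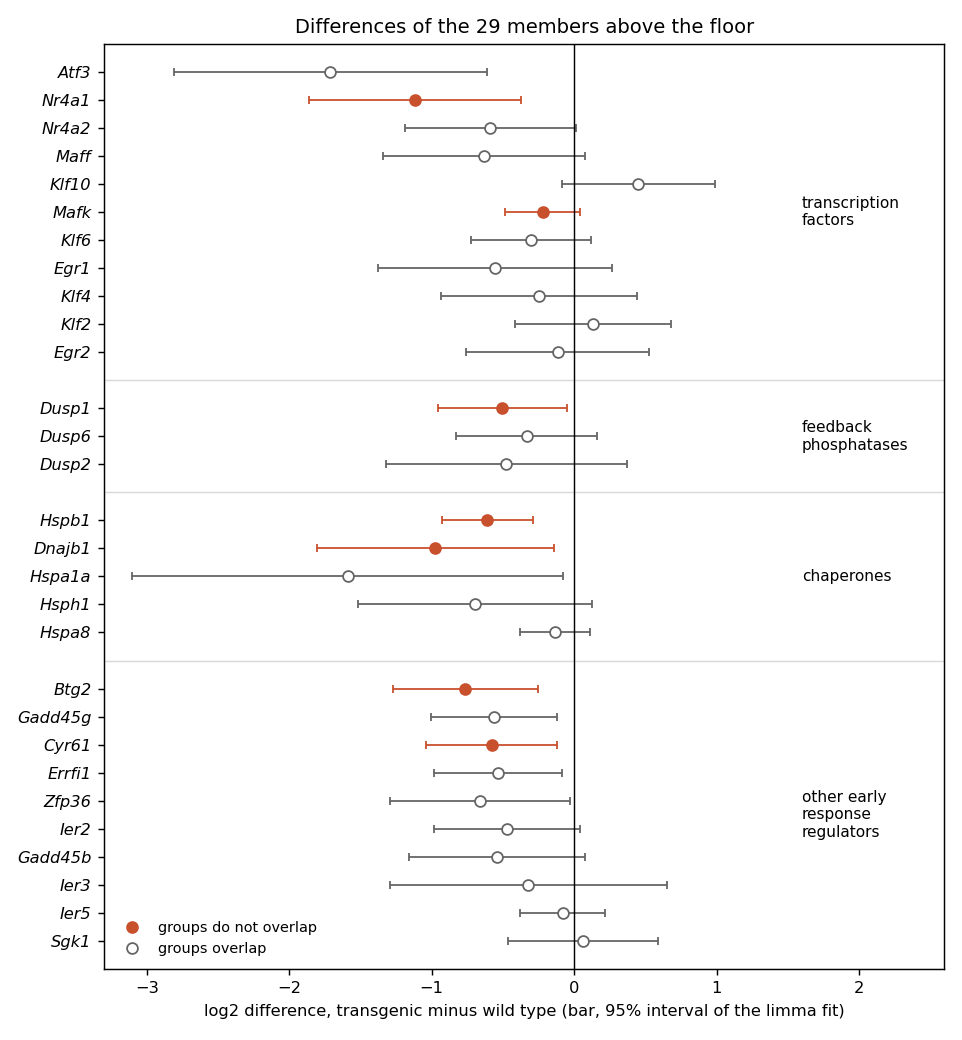
Log2 difference of each of the 29 members above the floor, transgenic minus wild type (x axis), with the 95% interval of the limma fit, grouped by class and ordered by p within a class. Filled points mark the 7 members whose groups did not overlap; 26 of the 29 points lie below 0, and the largest value above 0 is Klf10 at 0.45.

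Among the transcription factors, Atf3 and the receptor gene Nr4a1 had the most negative differences, followed by Maff, Nr4a2 and Egr1, while Klf2 and Klf10 had positive ones, as did Egr3, which was under the floor. Of 13 measured, 10 had a negative difference and 2 were lower at an unadjusted p under 0.05. Atf3, a stress-induced factor of the ATF and CREB family, had 10.34, 9.64, 10.23 and 11.18 in wild-type mice 1 to 4 and 8.67, 8.15, 7.85 and 9.87 in transgenic mice 1 to 4. Transgenic mice 1 to 3 lay below every wild-type mouse, and transgenic mouse 4 lay just above wild-type mouse 2, so that the groups overlapped by this pair alone. The means were 10.35 ± 0.64 against 8.64 ± 0.89 (SD, n = 4 each), a difference of -1.71 (SE 0.48, 95% interval -2.81 to -0.62, limma adjusted p = 0.313). Without transgenic mouse 4 the difference was -2.12, and without wild-type mouse 4 it was -1.43.

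The Nr4a genes encode orphan nuclear receptors that act without a known required ligand. Nr4a1 had 14.35, 13.73, 13.67 and 14.58 in wild-type mice 1 to 4 and 13.22, 12.50, 12.49 and 13.64 in transgenic mice. Even the highest transgenic mouse, number 4, lay just under the lowest wild-type mouse, number 3. The group means were 14.08 ± 0.45 against 12.96 ± 0.56 (SD, n = 4 each), a difference of -1.12 (SE 0.32, 95% interval -1.86 to -0.38, limma adjusted p = 0.342), and leaving out any 1 mouse gave -1.34 to -0.95. Nr4a2 had 8.62, 8.21, 8.05 and 9.25 in wild-type and 7.90, 8.02, 7.70 and 8.18 in transgenic mice, with a difference of -0.59 (SE 0.26, adjusted p = 0.558) that became -0.35 without wild-type mouse 4. Here transgenic mouse 4 lay above wild-type mouse 3 and the other 3 transgenic mice lay below all wild-type mice. A dimmer spot of Nr4a2 had a difference of -0.39. Nr4a3 was read by 10 spots, with single values from 1.38 to 5.04 and differences from -0.73 to 0.47, 7 of them negative. This is the spread of spots at or under the floor, and no level can be given for Nr4a3 in this tissue.

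The promoters of the 3 Nr4a genes are shown because they share a feature that the choice of members did not use. The letters are the 250 bases before the transcription start in RefSeq's GRCm38.p6 annotation (Nr4a1, chr15:101266596-101266845, plus strand; Nr4a2, chr2:57124004-57124253, minus strand; Nr4a3, chr4:48045055-48045304, plus strand). Capitals mark the core of the cyclic AMP response element (CRE), CGTCA, or TGACG where it lies on the other strand.
Nr4a1: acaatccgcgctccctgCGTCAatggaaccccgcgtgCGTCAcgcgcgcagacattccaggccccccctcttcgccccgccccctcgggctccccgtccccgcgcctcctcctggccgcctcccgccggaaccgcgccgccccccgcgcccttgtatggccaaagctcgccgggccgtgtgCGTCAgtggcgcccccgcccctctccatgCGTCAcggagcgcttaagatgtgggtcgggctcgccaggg
Nr4a2: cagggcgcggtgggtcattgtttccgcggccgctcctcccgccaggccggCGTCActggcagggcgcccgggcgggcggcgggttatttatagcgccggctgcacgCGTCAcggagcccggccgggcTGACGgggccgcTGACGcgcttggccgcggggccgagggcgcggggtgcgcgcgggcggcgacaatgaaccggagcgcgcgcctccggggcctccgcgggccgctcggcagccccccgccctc
Nr4a3: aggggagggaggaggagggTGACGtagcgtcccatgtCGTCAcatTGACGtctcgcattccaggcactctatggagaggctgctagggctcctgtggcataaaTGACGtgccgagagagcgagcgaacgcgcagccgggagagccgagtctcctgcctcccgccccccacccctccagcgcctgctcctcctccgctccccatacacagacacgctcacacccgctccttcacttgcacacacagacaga
Each of the 3 holds 4 CRE cores. Of the 32851 promoters of this length, 0.137% hold at least 4 and 17.8% hold at least 1. In Nr4a1 they begin 233, 213, 69 and 40 bases before the start. The core was searched after the Nr4a1 sequence had been read. Sequences were at hand for 42 promoters of 28 members, since some genes have several starts whose windows can overlap. Egr1, Egr3, Ier2, Klf10 and Hspa8 had no promoter sequence here and were not searched for any motif. Of the 42, 20 held at least 1 core, 4 the full CRE TGACGTCA (1.55% of all promoters) and 0 the AP-1 site TGACTCA (4.46% of all); the 20 belong to 17 genes. All motifs were searched on both strands, and each full CRE holds 2 overlapping cores. A match of letters is a description and shows no binding.

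Maff and Mafk encode small Maf proteins, which pair with factors such as Nrf2. Maff had 10.07, 9.66, 10.02 and 10.23 in wild-type and 9.30, 8.80, 9.09 and 10.28 in transgenic mice, a difference of -0.63 (SE 0.31, adjusted p = 0.594). Transgenic mice 1 to 3 lay below all wild-type mice and transgenic mouse 4 lay above all of them. Mafk had 10.93, 10.67, 10.76 and 10.72 against 10.64, 10.41, 10.60 and 10.54. The Mafk groups did not overlap, but the difference was small, -0.22 (SE 0.12, adjusted p = 0.616).

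The Egr genes encode zinc finger factors induced by growth factors. Egr1 had 11.92, 11.57, 11.02 and 12.73 in wild-type and 11.39, 11.70, 11.08 and 10.85 in transgenic mice, with a difference of -0.56 (SE 0.36, adjusted p = 0.685). Wild-type mouse 4 was far above the rest, wild-type mouse 3 was lower than 3 of the transgenic mice, and the difference shrank to -0.25 when wild-type mouse 4 was left out and to -0.11 when transgenic mouse 4 was dropped too. Egr2 ran from 7.76 to 9.08 in wild-type and 8.08 to 8.76 in transgenic lung with a difference of -0.12 (SE 0.28, adjusted p = 0.929). Its sign turned to 0.094 when wild-type mouse 4 was left out, and to 0.18 when transgenic mouse 4 was left out as well. Egr3 was under the floor in all 8 mice (3.32 to 4.52).

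Klf2, a shear stress response factor of endothelium, had 13.90, 13.43, 13.22 and 14.16 in wild-type and 14.11, 13.45, 13.81 and 13.87 in transgenic mice. The transgenic range lay within the wild-type range, with a difference of 0.13 (SE 0.24, adjusted p = 0.896) that ran from -0.019 to 0.29 with 1 mouse left out, turning without wild-type mouse 3. Klf4, a factor of epithelial and endothelial cells, ran from 12.23 to 13.11 in wild-type and 11.90 to 13.07 in transgenic mice with a difference of -0.25 (SE 0.30, adjusted p = 0.839). It ran from -0.44 without transgenic mouse 4 to -0.050 without transgenic mouse 2. Klf6, an early response factor of the same family, had 13.54, 13.26, 13.32 and 14.04 in wild-type and 13.33, 13.16, 13.15 and 13.31 in transgenic mice, with a difference of -0.30 (SE 0.18, adjusted p = 0.668) that became -0.14 without wild-type mouse 4. The transgenic mice lay within 0.18 of each other, at or just under the lower end of the wild-type range. Klf10, which is induced by TGF-beta, ran the other way: it had 10.03, 10.39, 10.32 and 10.43 in wild-type and 10.64, 11.13, 11.08 and 10.12 in transgenic mice. Transgenic mice 1 to 3 lay above all wild-type mice and transgenic mouse 4 within the wild-type range. The difference was 0.45 (SE 0.23, 95% interval -0.087 to 0.99, limma adjusted p = 0.614), and 0.66 without transgenic mouse 4.

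**Figure D2:**
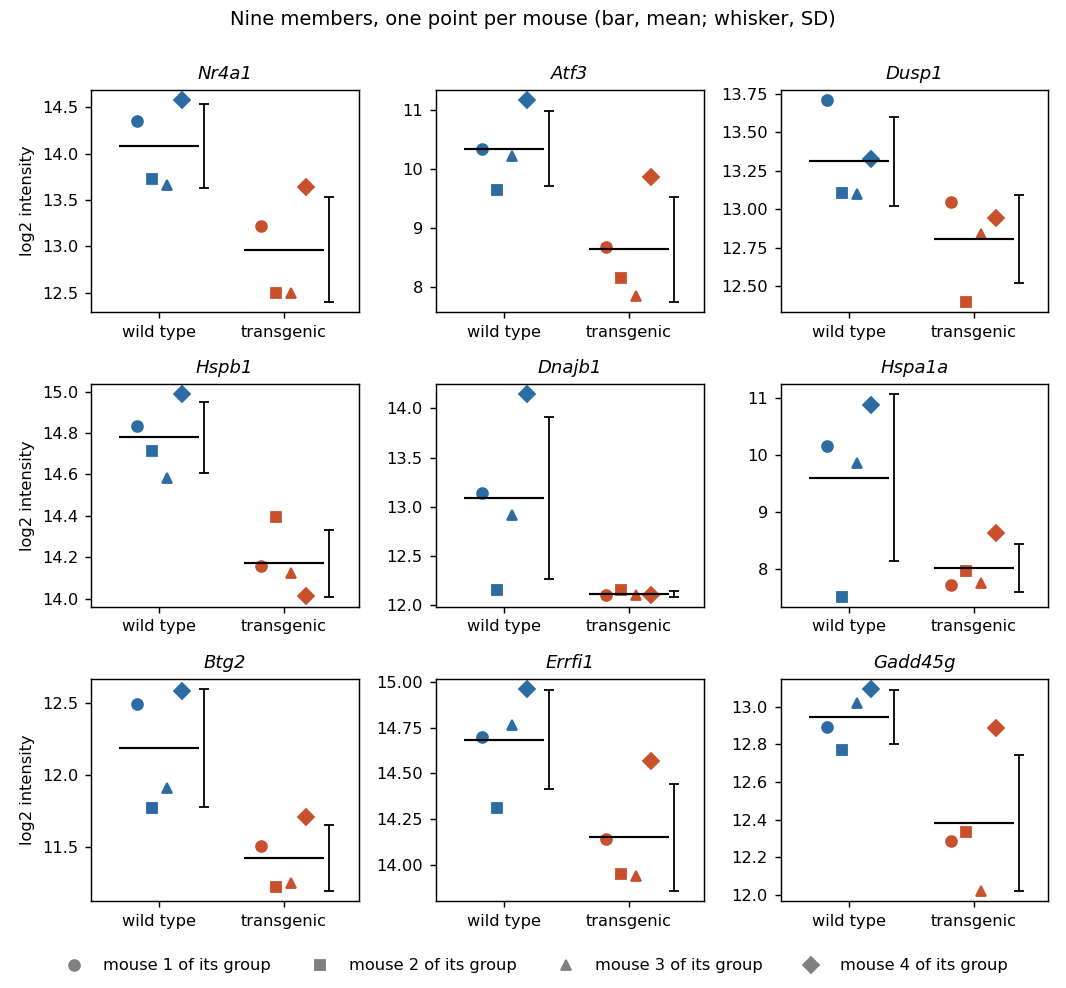
Log2 intensity (y axis) of 9 members in each mouse, wild type in blue and transgenic in orange, with the symbol giving the mouse number within its group, the bar the mean and the whisker the SD. Nr4a1, Dusp1, Hspb1, Dnajb1 and Btg2 show no overlap between groups, while transgenic mouse 4 reaches the wild-type range in Atf3 (9.87), Errfi1 (14.57) and Gadd45g (12.88), and wild-type mouse 2 lies at 7.51 in Hspa1a.

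Of the 4 feedback phosphatases, the 3 above the floor had negative differences, and 1, Dusp1, was lower at an unadjusted p under 0.05. Dusp1, a nuclear phosphatase that switches off p38 and JNK, had 13.71, 13.11, 13.10 and 13.33 in wild-type and 13.05, 12.40, 12.84 and 12.94 in transgenic mice. Every transgenic mouse lay below every wild-type mouse, with means of 13.31 ± 0.29 against 12.81 ± 0.29 (SD, n = 4 each) and a difference of -0.50 (SE 0.20, 95% interval -0.96 to -0.049, limma adjusted p = 0.502). Dusp6, which acts on ERK in the cytoplasm, had 12.55, 12.91, 12.27 and 13.18 in wild-type and 12.51, 12.45, 12.55 and 12.08 in transgenic mice with a difference of -0.33 (SE 0.22, adjusted p = 0.685). Its groups overlapped, and the difference shrank to -0.18 when wild-type mouse 4 was left out and to -0.076 when transgenic mouse 4 was dropped too. Dusp2, a phosphatase of immune cells, had 11.26, 11.32, 11.29 and 10.48 in wild-type and 10.70, 10.07, 10.07 and 11.61 in transgenic mice. Transgenic mouse 4 was the highest of all 8 mice and wild-type mouse 4 the lowest of its group, and the difference of -0.48 (SE 0.37, adjusted p = 0.739) became -1.01 without this pair, -0.81 without transgenic mouse 4, and -0.29 or -0.30 without transgenic mouse 2 or 3. Dusp5, which acts on ERK in the nucleus, lay near the floor in all mice (4.14 to 5.06).

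Dusp1 and Btg2 each hold a full CRE before their start. Maff and Errfi1, whose groups overlapped, hold it too, 29 and 51 bases before a start. Zfp36 holds a CArG box, the site that serum response factor reads in many immediate early genes. The promoters of Dusp1, Btg2 and Zfp36 are shown with these sites, and any further CRE core, in capitals, again as the 250 bases before the RefSeq start (Dusp1, chr17:26508473-26508722, minus strand; Btg2, chr1:134079156-134079405, minus strand; Zfp36, chr7:28379229-28379478, minus strand).
Dusp1: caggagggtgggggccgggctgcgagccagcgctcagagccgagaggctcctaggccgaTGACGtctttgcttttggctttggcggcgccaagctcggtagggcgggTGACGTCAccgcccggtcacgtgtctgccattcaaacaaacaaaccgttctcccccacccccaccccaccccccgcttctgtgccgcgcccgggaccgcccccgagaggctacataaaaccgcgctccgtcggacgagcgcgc
Btg2: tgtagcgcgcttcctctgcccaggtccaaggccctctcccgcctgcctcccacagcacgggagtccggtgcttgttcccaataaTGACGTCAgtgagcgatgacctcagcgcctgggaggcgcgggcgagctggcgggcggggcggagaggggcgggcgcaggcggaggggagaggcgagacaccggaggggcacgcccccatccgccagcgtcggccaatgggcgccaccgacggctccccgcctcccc
Zfp36: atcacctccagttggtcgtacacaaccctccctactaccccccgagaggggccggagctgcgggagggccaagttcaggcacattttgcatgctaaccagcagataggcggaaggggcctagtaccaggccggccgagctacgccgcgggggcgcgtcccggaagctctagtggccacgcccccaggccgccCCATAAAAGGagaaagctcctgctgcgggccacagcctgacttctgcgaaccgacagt
The CRE begins 143 bases before the start in Dusp1 and 166 in Btg2, and the CArG box 58 bases before the start in Zfp36. A CArG box was found in 6 of the 42 member promoters, which belong to 3 genes (Zfp36, Dusp5 and Egr2, the last with overlapping windows), and in 1.47% of all promoters.

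All 5 measured chaperones had negative differences, with a median of -0.70, and 3 were lower at an unadjusted p under 0.05. At the brightest spot, wild-type mouse 4 was the highest of all 8 mice in each of the 5 (25.3% of all genes above the floor). For Hspa8 that spot was near saturation (15.98 in wild-type mouse 4 against 15.97 in wild-type mouse 1). Wild-type mouse 4 was also highest at the next Hspa8 spot (15.17). At the dimmest it had 11.66, under wild-type mice 1 and 2 and transgenic mouse 2 (12.08, 11.96 and 11.67). Hspb1, a small heat shock protein, had 14.83, 14.71, 14.59 and 14.99 in wild-type and 14.16, 14.39, 14.12 and 14.01 in transgenic mice. The groups were apart and both were narrow: 14.78 ± 0.17 against 14.17 ± 0.16 (SD, n = 4 each), 1.53-fold lower in transgenic lung. Its difference of -0.61 (SE 0.14, 95% interval -0.93 to -0.29, limma adjusted p = 0.202) had the smallest p among the members. It passed where the variance was modelled with an intensity trend (limma adjusted p = 0.0416, and 0.0454 with robust estimates as well), and over all alternatives its adjusted p ran from 0.0416 to 0.474.

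Hspa1a, the inducible Hsp70, varied most among the wild-type mice: 10.17, 7.51, 9.86 and 10.89, a 10.4-fold range. In transgenic mice it had 7.72, 7.96, 7.76 and 8.64, a 1.90-fold range. Wild-type mouse 2 was the lowest of all 8 mice, and the other 3 wild-type mice lay above all transgenic mice. The means were 9.61 ± 1.46 against 8.02 ± 0.43 (SD, n = 4 each), with a difference of -1.59 (SE 0.66, 95% interval -3.10 to -0.081, limma adjusted p = 0.518) that became -2.29 without wild-type mouse 2 and -1.16 without wild-type mouse 4. Hspa1b, the adjacent copy of this gene, had no spot, and 247 of the 250 bases before the starts of both genes are identical. The spot named Hspa1a may read both copies.

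Dnajb1, the Hsp40 partner of Hsp70, followed the same mice. It had 13.14, 12.16, 12.91 and 14.14 in wild-type and 12.10, 12.15, 12.10 and 12.10 in transgenic mice, a 3.96-fold range among wild-type and a 1.04-fold range among transgenic mice. Wild-type mouse 2 stood at the transgenic level, 0.0026 above the highest transgenic mouse, and wild-type mice 1, 3 and 4 were higher. The difference was -0.97 (SE 0.36, 95% interval -1.81 to -0.14, limma adjusted p = 0.471), and -0.62 without wild-type mouse 4. Hsph1, a nucleotide exchange factor for Hsp70, had 11.63, 11.42, 11.26 and 12.54 in wild-type and 10.62, 11.15, 10.53 and 11.77 in transgenic mice. Transgenic mouse 4 was higher than 3 of the 4 wild-type mice, and the difference was -0.70 (SE 0.36, adjusted p = 0.610), or -0.42 without wild-type mouse 4; a second spot gave -0.62. Hspa8, the constitutive Hsc70, was at the top of the scanner's range at its brightest spot, with 15.91 to 15.98 in wild-type and 15.68 to 15.94 in transgenic mice with a difference of -0.13 (SE 0.11, adjusted p = 0.748), or -0.087 without transgenic mouse 4. Its dimmer spots, further from saturation, had differences of -0.40 and -0.53, both with overlapping groups.

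The promoters of Hspa1a and Hspb1 are shown for their heat shock units, paired inverted GAA triplets written GAANNTTC (Hspa1a, chr17:34972157-34972406, minus strand; Hspb1, chr5:135887669-135887918, plus strand). Capitals mark these pairs and, in Hspb1, 1 CRE core.
Hspa1a: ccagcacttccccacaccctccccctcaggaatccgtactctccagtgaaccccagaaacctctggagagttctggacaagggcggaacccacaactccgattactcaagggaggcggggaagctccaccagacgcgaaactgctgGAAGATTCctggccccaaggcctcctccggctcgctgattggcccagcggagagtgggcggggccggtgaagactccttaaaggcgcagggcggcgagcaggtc
Hspb1: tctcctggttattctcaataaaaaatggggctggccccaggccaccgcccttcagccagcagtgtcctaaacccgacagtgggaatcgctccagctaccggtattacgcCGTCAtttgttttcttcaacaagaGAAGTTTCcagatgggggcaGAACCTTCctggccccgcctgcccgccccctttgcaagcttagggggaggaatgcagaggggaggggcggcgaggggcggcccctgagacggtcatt
The pair begins 104 bases before the start in Hspa1a, and 117 and 97 bases before it in Hspb1. A pair of either orientation (GAANNTTC or TTCNNGAA) was found in 9 of the 42 member promoters, which belong to 7 genes (Hspa1a, Hspa1b, Hspb1, Hsph1, Cyr61, Egr2 and Sgk1), and in 12.8% of all promoters. The 3-unit form GAANNTTCNNGAA, which overlaps these pairs, was found in 0 of the 42 and in 0.466% of all.

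Among the other early response regulators 9 of 10 differences were negative and 5 were lower at an unadjusted p under 0.05. Btg2, an antiproliferative protein that recruits the deadenylase to mRNA, had 12.49, 11.77, 11.91 and 12.58 in wild-type and 11.51, 11.22, 11.25 and 11.71 in transgenic mice. The highest transgenic mouse, number 4, lay just under wild-type mouse 2. The means were 12.19 ± 0.41 against 11.42 ± 0.23 (SD, n = 4 each), a difference of -0.76 (SE 0.22, 95% interval -1.27 to -0.26, limma adjusted p = 0.342), and -0.90 to -0.63 with any 1 mouse left out. Zfp36 (tristetraprolin), which binds AU-rich elements and speeds mRNA decay, had 9.41, 8.59, 8.22 and 9.31 in wild-type and 8.01, 8.15, 8.26 and 8.45 in transgenic mice. Wild-type mice 1 and 4 were high and mice 2 and 3 near the transgenic range, with a difference of -0.66 (SE 0.27, adjusted p = 0.519).

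Errfi1, an inhibitor of the EGF receptor, had 14.70, 14.31, 14.77 and 14.96 in wild-type and 14.14, 13.95, 13.94 and 14.57 in transgenic mice with a difference of -0.53 (SE 0.20, adjusted p = 0.468). Cyr61 (Ccn1), a matricellular protein, had 12.61, 12.08, 11.70 and 12.03 in wild-type and 11.70, 11.33, 11.44 and 11.64 in transgenic mice with a difference of -0.58 (SE 0.20, adjusted p = 0.435). For Cyr61 the groups were apart by 0.0020 between wild-type mouse 3 and transgenic mouse 1, and for Errfi1 transgenic mouse 4 lay above wild-type mouse 2. Gadd45g, a growth arrest protein that activates a p38 and JNK kinase, had 12.89, 12.77, 13.02 and 13.09 in wild-type and 12.28, 12.33, 12.02 and 12.88 in transgenic mice. Transgenic mouse 4 was in the wild-type range and the other 3 were lower, with a difference of -0.56 (SE 0.19, adjusted p = 0.430). Its relative Gadd45b had 11.95, 11.47, 12.08 and 11.43 against 11.38, 11.37, 11.53 and 10.46 with a difference of -0.54 (SE 0.27, adjusted p = 0.597). There transgenic mouse 4 was the lowest, the opposite place from the one it took in Gadd45g, and without it the Gadd45b difference was -0.30.

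Ier2, a nuclear early response protein, had 8.83, 8.12, 7.90 and 8.34 in wild-type and 8.07, 7.48, 7.93 and 7.83 in transgenic mice, with a difference of -0.47 (SE 0.22, adjusted p = 0.584), or -0.29 without wild-type mouse 1. Ier3, which affects cell survival under stress, had 11.73, 11.76, 11.37 and 10.46 in wild-type and 11.27, 11.45, 11.43 and 9.88 in transgenic mice. Both mice numbered 4 were low in Ier3, and the difference of -0.32 (SE 0.42, adjusted p = 0.855) turned to 0.054 without transgenic mouse 4 and became -0.61 without wild-type mouse 4. Ier5, a regulator of heat shock factor, differed by -0.080 (SE 0.13, adjusted p = 0.884) at its brightest spot (-0.16 to -0.028 with 1 mouse left out), and by -0.43 at the other, where the groups did not overlap (8.12 to 8.38 in wild-type and 7.66 to 7.96 in transgenic mice). Sgk1, a kinase induced by corticosteroids, had 12.51, 12.09, 12.29 and 11.85 in wild-type and 12.39, 11.83, 12.03 and 12.74 in transgenic mice. The groups overlapped, with a difference of 0.064 (SE 0.23, adjusted p = 0.954) that turned to -0.048 without wild-type mouse 4, -0.10 without transgenic mouse 4 and -0.21 without both.

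**Figure D3:**
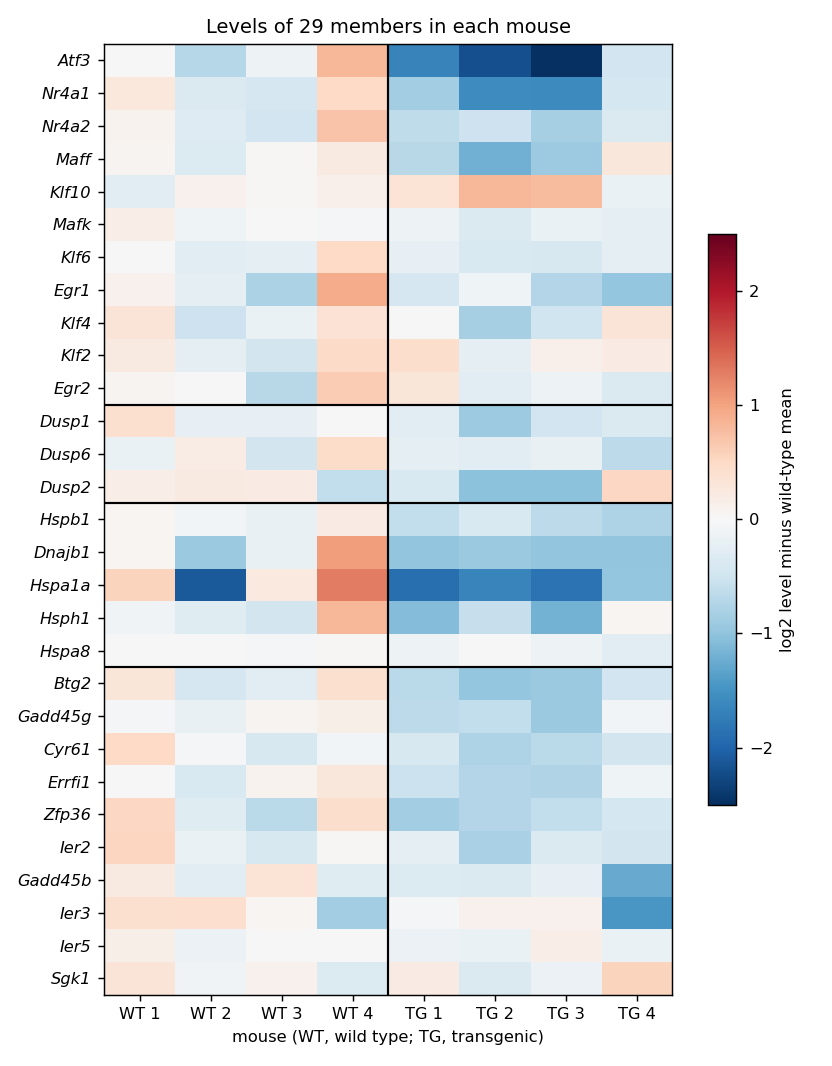
Level of each of the 29 members in each mouse as log2 intensity minus the wild-type mean of that gene (colour scale), with mice in columns and genes in rows, grouped by class. The 4 transgenic mice lie below the wild-type mean (blue) in 24, 27, 25 and 23 of the 29 rows, with the lowest cell for Atf3 in transgenic mouse 3, and wild-type mice 2 and 3 lie below it in 25 and 20; wild-type mice 1 and 4 do so in 5 and 6.

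Mice of the same genotype differed from each other in these genes. Within groups, the median pooled SD of the 29 members was 0.36, against 0.25 for all 14667 genes above the floor. Wild-type mouse 4 was the highest wild-type mouse in 19 of 29 members (36.4% of all genes above the floor) and the highest of all 8 mice in 17 (25.3%). Wild-type mice 2 and 3 were the lowest of their group in 11 and 13 members (20.8% and 21.1% of all genes). Transgenic mouse 4 was the highest of its group in 13 members and the lowest in 10 (33.4% and 38.5% of all genes).

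Single mice were also read by class. The classes hold unlike numbers of genes, so their spreads were not compared with each other. For each mouse, the level relative to the wild-type mean was taken as a median over the members of a class above the floor. For the 11 transcription factors it was -0.28 to 0.50 in wild-type and -0.49 to -0.21 in transgenic mice, which overlapped. For the 3 phosphatases it was -0.21 to 0.18 and -0.91 to -0.26. For the 5 chaperones it was -0.30 to 0.83 and -0.99 to -0.57. For the 10 other regulators it was -0.18 to 0.32 and -0.67 to -0.38. The last 3 classes did not overlap between groups, by a narrow gap for the 3 phosphatases (-0.21 against -0.26). How often sets of so few genes lie apart was not tested. Over all genes above the floor the same median was at most 0.020 in every mouse. It is kept near 0 where arrays share 1 distribution, so it gives no background for medians of a few genes.

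**Figure D4:**
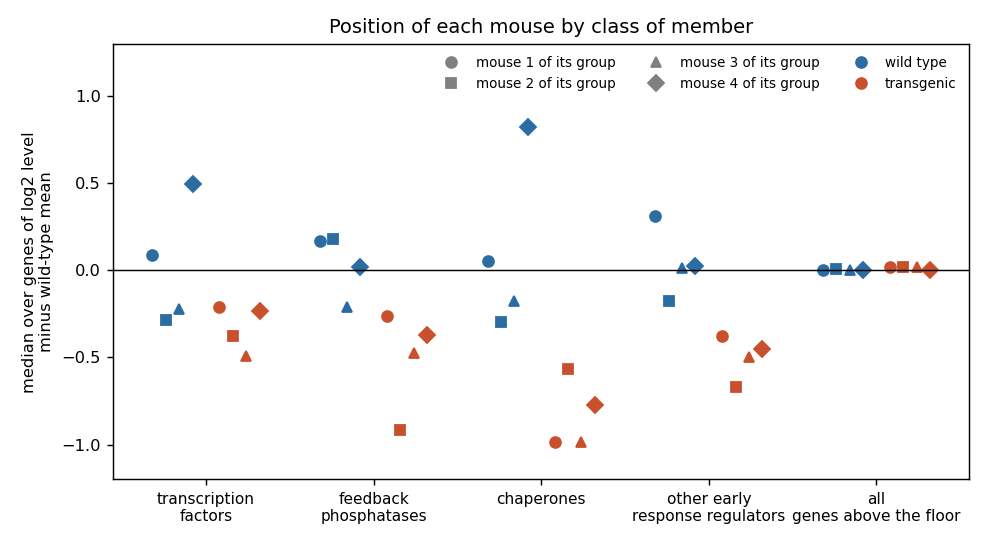
Median, over the members of each class above the floor, of the log2 level minus the wild-type mean (y axis), with a point per mouse in blue for wild type and orange for transgenic and the mouse number given by the symbol. Wild-type mouse 4 lies highest in transcription factors (0.50) and chaperones (0.83), the transgenic mice lie below 0 in all 4 classes, and all 8 mice lie near 0 (at most 0.020) over all genes.

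Related genes outside the 33 were read from lists drawn up by function, in the same fit. Of 42 measured other immediate early genes 0 passed over all genes (smallest adjusted p = 0.220), and at an unadjusted p under 0.05, 10 were lower, among them Fosl2 itself through its brighter spot, and 1 was higher; 29 differences were negative and the median was -0.29. The smallest p in that list belonged to Plk2, a Polo-like kinase, which was the 1 higher gene at 0.98 (SE 0.23) with groups that did not overlap. Next were Fosb, a Fos family member, at -1.33 (SE 0.38), Phlda1 at -0.48 (SE 0.16) and Nfkbiz, a nuclear IkB protein, at -0.48 (SE 0.17), and Fos itself differed by -0.87 (SE 0.32). Of 38 other heat shock and chaperone genes 0 passed (smallest adjusted p = 0.404), 3 were lower and 1 higher at an unadjusted p under 0.05, and the median was -0.15. Hsp90aa1, the inducible Hsp90, differed by -0.65 (SE 0.21), Dnaja4, another Hsp40, by -0.48 (SE 0.17), Cryab, a small heat shock protein, by -0.32 (SE 0.13), and Hspa12b, an Hsp70 relative of endothelium, by 0.47 (SE 0.15).

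Kinases and factors that act upstream of immediate early genes went both ways, with differences from -0.42 (Egfr, a growth factor receptor) to 0.47 (Crem, a cyclic AMP response factor), both named after their values were seen. Of 20 measured, 0 passed (smallest adjusted p = 0.468), 12 differences were negative, 0 genes were lower and 2 higher at an unadjusted p under 0.05, and the median was -0.017; Elk1 was at the top of the scale in all mice. The higher ones were Mrtfb, a coactivator of serum response factor, at 0.31 (SE 0.11) and Elk3, a ternary complex factor, at 0.31 (SE 0.11); Srf differed by -0.11 (SE 0.18). Of 15 other MAP kinase phosphatases and Sprouty genes 0 passed (smallest adjusted p = 0.296) and 2 were lower at an unadjusted p under 0.05, the receptor kinase inhibitors Spry2 at -0.74 (SE 0.20) and Spry1 at -0.63 (SE 0.22). Spry2 lay near the floor in transgenic mice (4.69 to 5.05), which limits how its difference can be read. In the glucocorticoid response list, which shares Errfi1, Dusp1 and Sgk1 with the members, 0 of 16 passed (smallest adjusted p = 0.468), 13 differences were negative and the median was -0.44. The 2 lower at an unadjusted p under 0.05 were the members Errfi1 and Dusp1.

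Markers of several cell types also differed in level between the groups. All 9 natural killer cell markers were lower at an unadjusted p under 0.05, 4 of them past the adjusted threshold, and their summed linear intensity was 8530 to 15030 in wild-type and 1393 to 2262 in transgenic mice. Of 9 T cell markers 8 were higher at that p (2395 to 3904 against 4905 to 6961), as were 3 of 9 endothelial markers (84941 to 100160 against 93001 to 111560). Each sum runs over a whole list and is weighted toward its brightest markers. In endothelium these were Cldn5 and Vwf (wild-type means 15.29 and 14.70), neither of which passed at that p. In the natural killer list the brightest was Gzma (12.97). At that p, smooth muscle markers were lower in 4 of 8 (38070 to 49174 against 29934 to 37415), red cell markers in 3 of 5, some at the top of the scale in several mice (157090 to 197020 against 89364 to 187340) and heart muscle markers in 1 of 8 (37017 to 87318 against 13744 to 61067). Whatever the p, differences were negative in all 8 smooth muscle, all 8 heart muscle and 4 of the 5 red cell markers. Neutrophil markers did not pass in any of 9 (79654 to 143020 against 61238 to 96310). No marker had a mean over all mice under the floor, though Klre1 and Ncr1 of the natural killer list had a transgenic mean under it. What part these cells have in the members' levels was not tested.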

How the data were processed

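The table deposited by the authors holds linear normalised intensity for 62976 spots, with 1 array for each of 8 mice; per the submitters' processing notes, R 2.15.1 and limma 3.14.4 were used, and how background and scaling were treated is not stated. The values share 1 distribution (median intensity 26.6 and mean 1203 on each array). RNA was isolated with a peqGOLD kit and labelled with Cy5, per the labels' protocols.

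Spots were named by the platform annotation (31465 with 1 gene symbol, 0 with several, 31511 unnamed here), updated through RefSeq accessions of GRCm38.p6, which matched 29050 spots. The brightest spot stood for each of 20863 genes. The log2 intensity was fitted over all genes with limma 3.58.1 in R 4.3.3 (lmFit, eBayes), with group as the only term and Benjamini-Hochberg adjustment over all genes at 0.05. A log2 intensity of 4.74, the median of all spots and arrays, served as floor. The fit was run on simulated data with independent genes, 200 of them shifted up or down by 2 on the log2 scale. That shift is larger than any member's difference, so the run does not show how well differences of the members' size are found. Named are all 33 members, Fosl2, and from each related list up to 4 genes with the smallest p; Fos, Srf and how many genes to name from the last 2 lists were chosen after their values were seen. Members and lists were chosen with earlier results of these data known. Flags for saturation were not used here, and the number of arrays limits the precision. Figures were drawn with matplotlib 3.10.9.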

Additional observations from a re-analysis of the deposited data

Results flagged for a closer look

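In 5 of the 58 groups of 4 mice tested (29 members in both genotypes), 1 mouse lay apart from the other 3 by more than Dixon's test allows at the 95% level. Chance flags about 1 in 20 groups. Wild-type mouse 4 had a Dusp2 level of 10.48, against 11.26 to 11.32 in the other wild-type mice. Transgenic mouse 4 was low in Ier3, at 9.88 against 11.27 to 11.45, and in Gadd45b, at 10.46 against 11.37 to 11.53. Transgenic mouse 3 had an Ier5 level of 8.44, against 8.11 to 8.12. Transgenic mouse 2 had a Dnajb1 level of 12.15, against 12.10 in each of the others, a gap that is large only beside their near identity.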

How the results depend on the processing

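No member passed the adjusted threshold under any alternative except with an intensity trend in the variance model, where 1 did (Hspb1, adjusted p = 0.0416), and with the trend and robust estimates, where again 1 did (Hspb1, 0.0454). The median difference of members stayed between -0.53 and -0.41 under the other alternatives, and between -0.55 and -0.40 with any 1 mouse left out. With 1 mouse left out, the members at an unadjusted p under 0.05 numbered 5 to 14, those with a negative difference 27 to 29 of 32, those called 0, and the genes called over all genes, 45 with all mice, 17 to 38. That count of 45 became 80 and 88 with 16 and 32 added before the log2, and 71 with dim genes left out. It was 85 with the trend, 118 with trend and robust estimates and 100 with array weights. It was 76 at an adjusted p under 0.1, which reads the same fit at a looser threshold, and 17 without both mice numbered 4. Fewer genes entered the fit with dim genes left out, and fewer samples without both mice numbered 4. For the other changes of the fit the cause was not tested. With the label number as a replicate block the count was 5 and 0 members passed. In that fit 15 members were lower at an unadjusted p under 0.05. The share of all genes at this p is not given for it, so the 15 cannot be read as a result about the members. Of 8 samples, 6 were closest to the same number in the other group, though correlations of deviations between same-numbered mice were small (-0.012 to 0.051). The labels name no pairs, so the main fit did not use the numbers. Whether they mark a shared batch was not tested. Signs turned with array weights for Egr2 (0.12), Egr3 (-0.027), Nr4a3 (0.14) and Sgk1 (-0.13), and without both mice numbered 4 for Egr2 (0.18), Nr4a3 (0.16) and Sgk1 (-0.21). With 1 mouse left out the difference ran from -0.34 to 0.094 for Egr2, -0.14 to 0.27 for Egr3, -0.30 to 0.29 for Nr4a3, -0.019 to 0.29 for Klf2, -0.61 to 0.054 for Ier3 and -0.10 to 0.20 for Sgk1. The other scalings left values as they were, since the arrays already shared 1 distribution.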
